A study of Homo sapiens with 3 samples.

Results

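OR1 and OR2 are 2 of the 3 cell lines whose mRNA was measured by microarray, and the data described here are the expression of each gene in OR1 relative to OR2. Both lines descend from H1975, an established non-small cell lung cancer line of adenocarcinoma origin that carries the EGFR L858R and T790M mutations and is sensitive to osimertinib, a kinase inhibitor of mutated EGFR. OR1 and OR2 were established independently of each other, from separate flasks, in which the osimertinib concentration was raised in steps over 4 months to reach 2 μmol/L. Each is therefore a single selected line, and all 3 lines share the mutated EGFR. RNA of each line was labeled with 1 dye and hybridized to 1 Agilent array, with all 3 arrays on the same slide. With 1 array per line there is no replicate, so no p-value can be given and the spread between cultures is unknown. Where an error is printed it is a technical SD, propagated from the error estimate that the scanner software gives for each spot.

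Values are scaled intensities, the background-corrected brightness of a gene's spot after the 75th percentile of each array was set to a common level. For a gene with several probes, the probe that was brightest over OR1 and OR2 was used, so that H1975 had no part in the ratio of OR1 to OR2 and serves as a further value beside it. Intensities of different probes are not compared with each other. A gene called well above background by the software in only 1 of the lines has a ratio that is a lower bound, taken against the lowest intensity so called on the dimmer array, or the gene's own value there if that was higher, and written "at least". These lowest intensities were 12.6 in OR1 and 11.9 in OR2. Of 43316 genes on the arrays, 19405 were well above background in both lines, 1078 in OR1 only and 979 in OR2 only, which left 21462 measured genes. The labeled cell type was checked by its markers. Of 9 markers of an epithelial lung cancer line, 8 were well above background in each line, SFTPB being the exception. The summed intensity of these markers was 163142 in OR1, 163006 in OR2 and 378038 in H1975. Most of each sum came from KRT7, KRT18 and KRT19, while EPCAM, CDH1, NKX2-1 and NAPSA read lower in OR1 than in OR2. Of 10 fibroblast markers, OR1 had 5 and OR2 had 3 above background, and COL3A1, DCN, PDGFRA and THY1 were not so in any line. The summed intensity of the fibroblast markers was 913 in OR1, 479 in OR2 and 851 in H1975, most of it from COL1A1 and, in OR2, PI16, and the part of other cells in this difference was not tested. Of 8 leukocyte and 8 endothelial markers on the arrays, the same 5 and 3 were well above background in each line, and CD3E, MS4A1 and NKG7 among the former and KDR, TEK, ERG, CLDN5 and EMCN among the latter were not so in any.

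Resistance to an EGFR inhibitor that does not rest on a further EGFR mutation is often accompanied by a change of cell state. In the epithelial to mesenchymal transition, carcinoma cells lose E-cadherin, claudins and other components of cell junctions and take on matrix, cytoskeletal and contractile genes, commonly under ligands of the TGF-beta family. Lung adenocarcinoma cells can also lose the lineage program set by NKX2-1, the transcription factor of lung and thyroid epithelium. Other genes that often differ between cell populations include the interferon-stimulated genes, an antiviral set switched on together by type I interferon, and the hypoxia-response genes, targets of hypoxia-inducible factor (HIF).

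OR1 and OR2 resembled each other over most genes. Of the 21462 measured genes, 20305 (94.61%) were less than 2-fold apart. At least 2-fold higher in OR1 were 628 genes (2.93%), 256 of them as a bound, and at least 2-fold higher in OR2 were 529 genes (2.46%), 151 of them as a bound. Together these made 1157 genes (5.39%). Across the 19405 genes measured in both lines, the log2 ratio of OR1 to OR2 had an SD of 0.47 against a median technical SD of 0.21, and lay between -0.71 and 0.73 for the central 90% of genes, from the 5th to the 95th percentile. Pearson's r of the log2 intensities of OR1 and OR2 across these genes was 0.986, a description over genes, which are not independent replicates. The median log2 ratio of all measured genes was 0.07, and lists of genes are described below relative to it. The balance between the directions changed with the scaling and with the choice of probes. The share of the genes past 2-fold that were higher in OR1 was 54.3%, but 47.0% after quantile normalization, 42.4% with each array scaled on its median, 27.0% without scaling and 4.47% when the arrays were scaled on 7 spike-in probes. The spike-in probes were brighter on the OR1 array by 0.44 on the log2 scale, and scaling on them shifted the median ratio of all genes by -0.67. With the scaling unchanged, the share was 49.6% (372 against 378 genes) when only genes well above background in both lines were kept, and 41.7% (269 against 376) with RefSeq mRNA probes only. A scaling constant moves every gene alike and leaves the order of the ratios as it is.

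**Figure D1:**
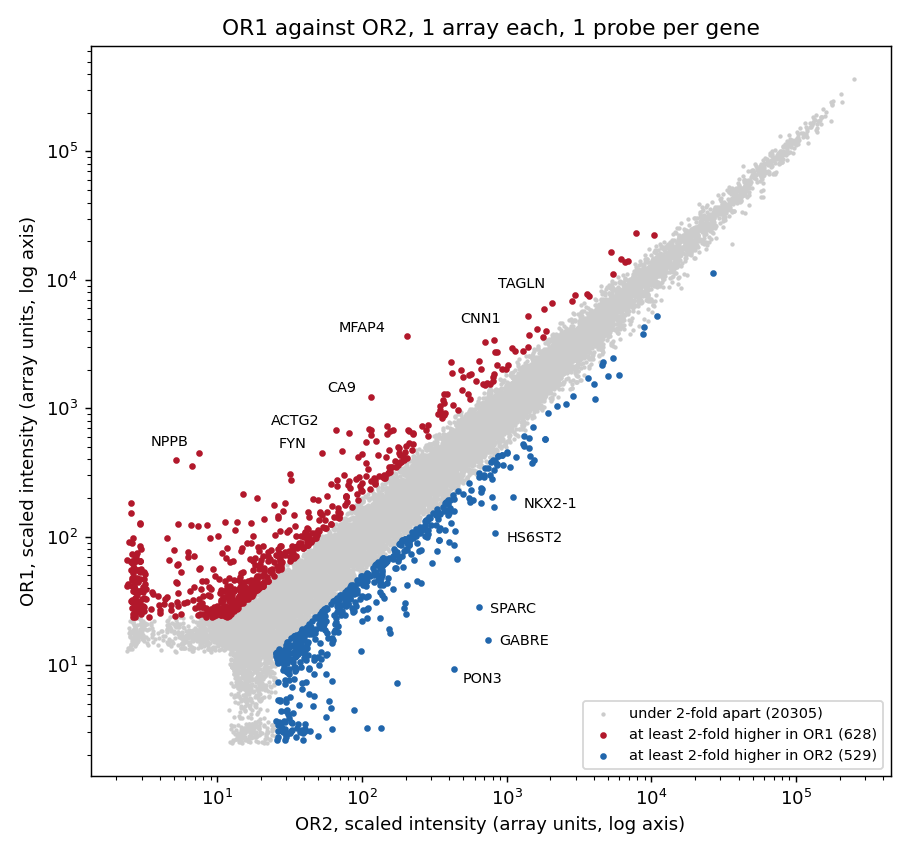
Scaled intensity of each measured gene in OR1 (vertical) against OR2 (horizontal), both on log axes in array units, 1 probe per gene and 1 array per line. Red points are the 628 genes at least 2-fold higher in OR1, blue points the 529 at least 2-fold higher in OR2 and gray points the other 20305 genes, which follow the diagonal. Bands at the lower left are genes that were not well above background in 1 of the lines.

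For 192 of the 1157 genes, another probe of the same gene was also measured. Of these 237 other probes, 208 (87.8%) pointed the same way as the brightest probe, 101 (42.6%) were at least 2-fold in that direction, and 2 were at least 2-fold in the opposite direction. Probes of a gene share the RNA and may cover different transcripts.

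H1975 was placed differently in the 2 directions. Among the 628 genes higher in OR1, 244 (38.9%) were not well above background in H1975, and among the 529 genes higher in OR2 this held for 105 (19.8%). Of the 384 genes higher in OR1 that were well above background in H1975, the H1975 level was nearer OR1 for 178 (46.4%) and nearer OR2 for 206 (53.6%). Of the 424 such genes higher in OR2, H1975 was nearer OR1 for 127 (30.0%) and nearer OR2 for 297 (70.0%). Read as departures from H1975, 340 of the genes higher in OR1 were at least 2-fold above H1975 in OR1 and within 2-fold of it in OR2, while 90 were within 2-fold of H1975 in OR1 and at least 2-fold below it in OR2. For genes higher in OR2 these departures were even, with 152 at least 2-fold below H1975 in OR1 alone and 150 at least 2-fold above it in OR2 alone. A further 93 were at least 2-fold below H1975 in both lines, and further below in OR1. Within 2-fold of H1975 in both lines were 121 genes higher in OR1 and 86 higher in OR2. Where a line and H1975 were both not well above background, they were counted as within 2-fold of each other. The limit of detection thus enters these counts. Both comparisons with H1975 use the same H1975 array.

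**Figure D2:**
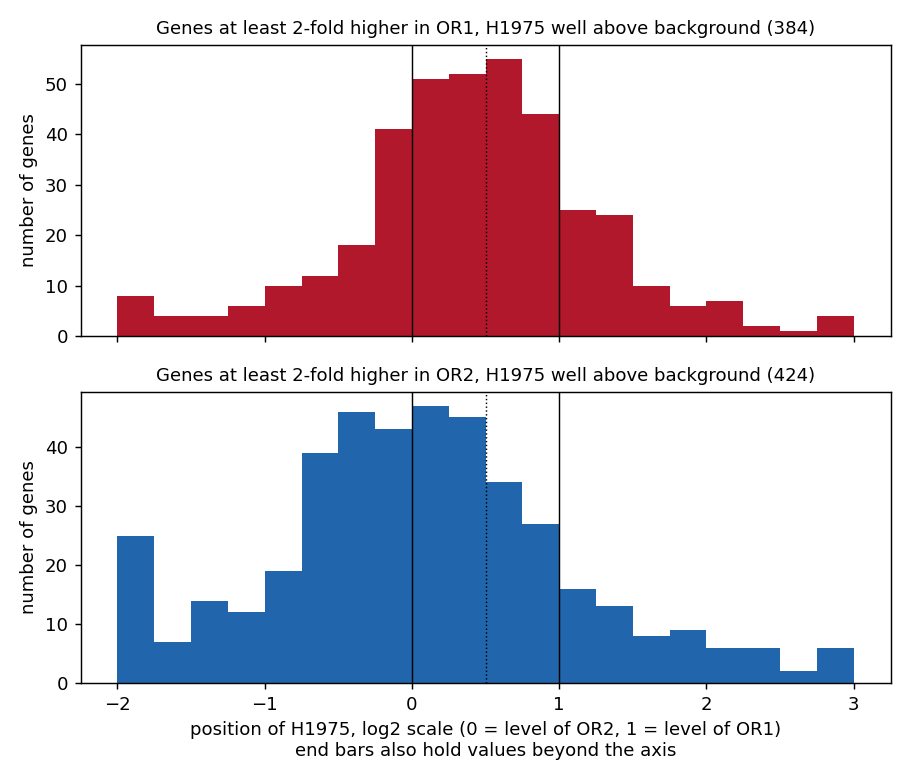
Where H1975 stood for genes at least 2-fold apart between OR1 and OR2 and well above background in H1975. The horizontal axis is the position of H1975 on the log2 scale, with 0 at the level of OR2 and 1 at the level of OR1, and the vertical axis counts genes. The upper panel holds the 384 genes higher in OR1, of which 178 lie nearer 1, and the lower panel the 424 higher in OR2, of which 297 lie nearer 0.

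Genes were grouped into 71 lists by function, which held 1699 measured genes, and 64 lists had at least 10 measured members. These lists were described by counts and medians, with no test. The share of members past 2-fold, against 5.39% over all genes, was highest in mesenchymal genes (57.1%), FGF receptors and ligands (41.7%), lung lineage genes (30.0%), matrix glycoproteins and proteoglycans (29.7%) and smooth-muscle actin and contractile genes (29.4%) among lists of that size. It was 14% in interferon-stimulated genes, 13% in SRC family kinases and adaptors and 12.9% in the TGF-beta and activin pathway. In 12 lists no member passed 2-fold. Lists overlap, so a gene can count in more than 1 of them.

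**Figure D3:**
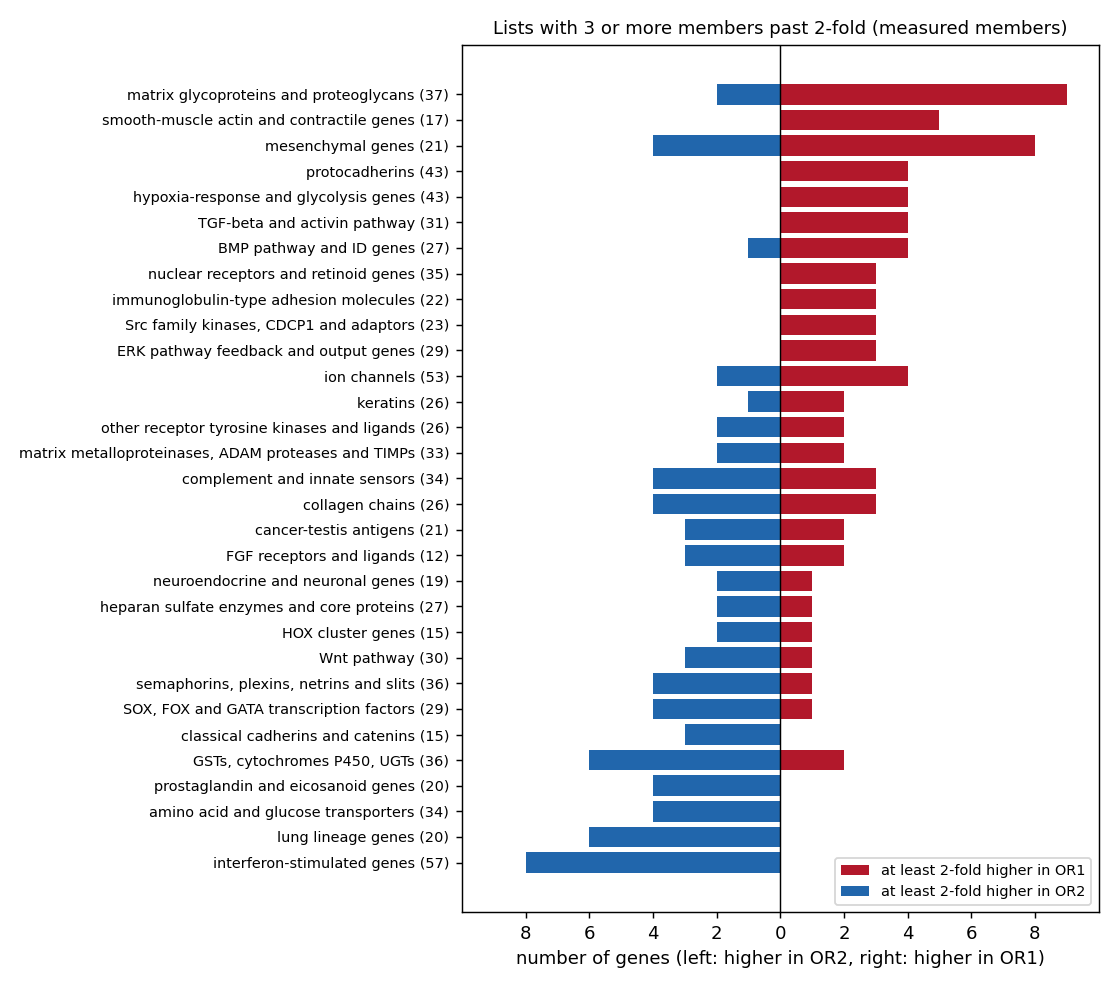
Number of genes at least 2-fold higher in OR1 (red, to the right) and at least 2-fold higher in OR2 (blue, to the left) in each list with 3 or more such genes and at least 10 measured members. The number of measured members stands in parentheses. Matrix glycoproteins have 9 genes higher in OR1 and 2 higher in OR2, contractile genes 5 and 0, interferon-stimulated genes 0 and 8, and lung lineage genes 0 and 6.

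Several contractile genes were higher in OR1. Of 17 measured members, 5 were at least 2-fold higher in OR1 and none in OR2, and the list's median log2 ratio lay 0.42 above that of all genes. ACTG2, the gamma smooth-muscle actin, had an intensity of 678 in OR1, 66.0 in OR2 and 24.3 in H1975, 10.3-fold higher in OR1 than in OR2 (log2 ratio 3.36 ± 0.21, technical SD). CNN1, calponin of smooth muscle, read 3311 in OR1, 711 in OR2 and 203 in H1975, a ratio of 4.66. TAGLN, or transgelin, an actin-binding protein of smooth muscle, read 6622 in OR1, 2061 in OR2 and 322 in H1975. These 3 genes ran in the same order, with H1975 lowest, OR2 above it and OR1 highest, and a further TAGLN probe had a log2 ratio of 1.59 beside 1.68. ACTA2, the alpha smooth-muscle actin, differed from them in that OR2, at 77.8, stood at the level of H1975, at 79.7, while OR1 read 204. SMTN, smoothelin, was at 193 in OR1, 93.7 in OR2 and 140 in H1975. Other contractile genes were close to equal or lower in OR1. MYLK, the kinase of myosin light chain, had a log2 ratio of -0.51, TPM1, a tropomyosin, of 0.05 and ACTN1, an actinin, of 0.03. SMTN fell under 2-fold with the arrays scaled on their medians, and ACTG2, CNN1 and TAGLN were the members still 2-fold higher in OR1 with spike-in scaling.

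Many contractile genes are known targets of serum response factor, which binds the CArG box, searched here as CCWWWWWWGG, where W is A or T. In the RefSeq promoter windows of GRCh38.p14, which run from 250 bases before to 50 bases after a start site, a CArG box was found in 454 of 35116 windows (1.29%). Among 33 windows of the 13 measured contractile genes that matched by symbol, 7 (21.2%) held one, those of ACTG2, ACTN1, CNN2, LPP, MYLK, SMTN and TPM4. Both strands were searched, and in the stretches shown no box overlapped the other motifs searched below. The stretches of ACTG2 and SMTN are shown because these are the members past 2-fold that hold the box, with the CArG boxes in capitals.
ACTG2, chr2:73892873-73892969, plus strand: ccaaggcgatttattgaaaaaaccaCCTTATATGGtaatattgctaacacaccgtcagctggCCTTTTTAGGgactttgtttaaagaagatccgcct
SMTN, chr22:31084927-31084986, plus strand: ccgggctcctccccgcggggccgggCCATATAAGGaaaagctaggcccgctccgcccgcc
The ACTG2 stretch holds 2 boxes and the SMTN stretch 1. MYLK, which also has a box in its window, was not higher in OR1. ACTA2 and CNN1, which were, have no exact match to the pattern in these windows. Boxes that depart from the pattern were not searched.

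Genes of the extracellular matrix differed in both directions, more of them toward OR1. Of 37 measured matrix glycoproteins and proteoglycans, 9 were at least 2-fold higher in OR1 and 2 in OR2, with a median 0.28 above that of all genes. MFAP4, a microfibril-associated glycoprotein of elastic fibers, had the largest ratio toward OR1 among genes with an mRNA accession measured in both lines. MFAP4 read 3686 in OR1, 204 in OR2 and 209 in H1975, 18.0-fold higher in OR1 (log2 ratio 4.17 ± 0.21, technical SD). Its probe lies on chromosome 17 of hg19, from 19286813 to 19286872. OR2 and H1975 had the same level within that error, and only OR1 stood apart. HAPLN1, a link protein of hyaluronan, was 123 in OR1 and not well above background in OR2 or H1975, at least 10.4-fold higher in OR1. LUM, the collagen-binding proteoglycan lumican, was 65.8 in OR1 and also not above background in the other lines, at least 5.55-fold higher. FN1, fibronectin, read 52.3 in OR1, 14.6 in OR2 and 71.2 in H1975, so that OR1 kept nearly the level of H1975. MATN2, IGFBP7, THBS1 (thrombospondin 1) and EFEMP1 were between 2.19-fold and 2.88-fold higher in OR1, and LTBP1, not well above background in OR2, was at least 2.67-fold higher. The largest opposite difference was that of SPARC, a matricellular collagen-binding protein. SPARC read 28.2 in OR1, 640 in OR2 and 896 in H1975, 22.7-fold higher in OR2 (log2 ratio -4.51 ± 0.25, technical SD), on chromosome 5 from 151041040 to 151041099. OR1 was the line that departed from H1975. NOV, a matricellular protein of the CCN family, read 204 in OR1, 787 in OR2 and 145 in H1975, 3.86-fold higher in OR2.

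Collagen chains differed in both directions as well. Of 26 measured chains, 3 were at least 2-fold higher in OR1 and 4 in OR2. COL1A1, a chain of fibrillar type I collagen, read 645 in OR1, 81.6 in OR2 and 445 in H1975, 7.90-fold higher in OR1. COL1A2, the partner chain, was 31.2 in OR1, not well above background in OR2 and 193 in H1975, at least 2.63-fold higher in OR1. COL16A1 read 498 in OR1, 177 in OR2 and 372 in H1975, with another probe at a log2 ratio of 0.61 beside 1.49. For type I collagen OR1 was thus closer to H1975 in COL1A1 and below it in COL1A2. The chains higher in OR2 were COL4A5, of the basement membrane, at least 4.87-fold, COL6A2 and COL6A1, of beaded filaments, at 2.54-fold and 2.09-fold, and COL27A1 at 2.53-fold, although 2 other COL27A1 probes had log2 ratios of 0.17 and -0.28. Among genes that act on collagen, LOXL1, a cross-linking oxidase, read 2001 in OR1, 486 in OR2 and 329 in H1975, and LOX read 286, 121 and 479. MMP2, the gelatinase A protease, was 49.8 in OR2 and not well above background in OR1 or H1975, at least 3.96-fold higher in OR2.

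The list of mesenchymal genes, which overlaps those of contractile and matrix genes, had 8 of 21 measured members higher in OR1 and 4 higher in OR2, and its median lay 0.45 above that of all genes. The 8 were COL1A1, LUM, LOXL1, FN1, TAGLN, COL1A2, ACTA2 and LOX, and the 4 were SPARC, MMP2, COL6A2 and COL6A1. Among transcription factors of the mesenchymal transition, TCF4 was 89.3 in OR1 and at 2.59 in OR2 and 2.57 in H1975, both not well above background, at least 7.53-fold higher in OR1. ZEB2, a repressor of E-cadherin, was 31.7 in OR1 and not well above background in OR2 or H1975, at least 2.67-fold higher, and another ZEB2 probe gave a bound of 1.96 on the log2 scale. FOXF1, a mesenchymal forkhead factor of the lung, was 2.59-fold higher in OR2. The median of the 8 measured factors lay 0.21 above that of all genes and changed sign, to -0.04, when only genes well above background in both lines were kept.

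Ligands and regulators of TGF-beta signaling differed as well. Of 31 measured genes of the TGF-beta and activin pathway, 4 were at least 2-fold higher in OR1 and none in OR2. INHBA, the subunit of activin A, read 729 in OR1, 148 in OR2 and 13.4 in H1975, a ratio of 4.93 (log2 ratio 2.30 ± 0.21, technical SD). TGFB1 read 360 in OR1, 178 in OR2 and 523 in H1975, a ratio of 2.02. LTBP1, which binds latent TGF-beta, was at least 2.67-fold higher in OR1. PMEPA1, a feedback inhibitor induced by TGF-beta, read 321 in OR1, 155 in OR2 and 7956 in H1975, far below H1975 in both lines. Of these 4 genes INHBA alone stood above H1975, in both lines and more so in OR1. In the BMP pathway 4 of 27 measured members were higher in OR1 and 1 in OR2. BMP5 read 674 in OR1, 163 in OR2 and 28.4 in H1975, BMP7 read 155 in OR1 and 51.3 in OR2, and the antagonist CHRD read 80.7 in OR1 and 201 in OR2, but other probes had log2 ratios of 0.27 for BMP7 and 0.18 for CHRD. With the arrays scaled on their medians, the TGF-beta and activin counts became 2 higher in OR1 and 1 higher in OR2.

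Among growth factor systems the FGF family split between the lines. Of 12 measured members, 2 were at least 2-fold higher in OR1 and 3 in OR2. FGF1, acidic FGF, read 469 in OR1, 72.4 in OR2 and 73.8 in H1975, but 2 further FGF1 probes had log2 ratios of 0.85 and -0.33 beside 2.70. FGFR2 read 209 in OR1, 77.3 in OR2 and 23.03 in H1975, and its other measured probe gave a log2 ratio of 1.87 beside 1.43. FGFR3 ran the other way, at 494 in OR1, 1434 in OR2 and 270 in H1975, with log2 ratios of -1.54 and -1.56 from its 2 probes. FGFR2 and FGFR3 were thus above H1975 in both lines, FGFR2 further in OR1 and FGFR3 further in OR2. FGFR1 and FGFR4 had log2 ratios of -0.20 and 0.05. FGF7 and FGFBP1, a carrier of FGF, were 2.46-fold and 2.05-fold higher in OR2. IGFBP3, which binds insulin-like growth factors, read 618 in OR1, 115 in OR2 and 179 in H1975. GAS6, the ligand of AXL, read 110 in OR1, 30.2 in OR2 and 50.7 in H1975, 3.63-fold higher in OR1. Across the alternative ways of processing the data, the GAS6 log2 ratio ranged from 0.90 to 1.86. NTRK2, the receptor of brain-derived neurotrophic factor, read 39.5 in OR1, 165 in OR2 and 336 in H1975, 4.17-fold higher in OR2. EREG, an EGF family ligand, was 2.90-fold higher in OR2, and no other of the 12 measured ERBB receptors and ligands passed 2-fold.

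Genes that the study followed differed little between OR1 and OR2, with 1 exception besides CDH1, which is described with the junction genes. AXL, a receptor tyrosine kinase, read 3066 in OR1 and 3319 in OR2 (log2 ratio -0.11 ± 0.20, technical SD), and CDCP1, a transmembrane substrate of SRC family kinases, read 557 and 471. SRC read 453 in OR1 and 340 in OR2, PDGFRB 273 and 190, TGFBR3 102 and 83.1, and FGR 29.5 and 52.6. H1975 was lower than both lines for each of these 6 genes. EGFR at 395 and 484, ERBB2 at 1419 and 1522, ERBB3 at 52.2 and 67.2, MET at 4843 and 6514 and CTNNB1 at 4536 and 3512 were also less than 2-fold apart, with 2 other EGFR probes at log2 ratios of -0.39 and 0.67. The exception was FYN. FYN, a SRC family kinase, read 449 in OR1, 53.1 in OR2 and 552 in H1975, 8.46-fold higher in OR1 (log2 ratio 3.08 ± 0.22, technical SD), so that OR1 was near H1975 and OR2 far below it. The FYN probe lies on chromosome 6 from 111982711 to 111982770. Of 23 measured SRC family kinases and adaptors, 3 were at least 2-fold higher in OR1 and none in OR2, the others being NEDD9, a docking protein of the FAK and SRC pathway, at 103, 25.1 and 123 in OR1, OR2 and H1975, and TNS1, tensin 1 of focal adhesions, at 661, 156 and 168. Another NEDD9 probe had a log2 ratio of 0.87 beside 2.03. The median of the list lay 0.27 below that of all genes, opposite in sign to its 3 members past 2-fold.

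Of 43 measured hypoxia-response and glycolysis genes, 4 were at least 2-fold higher in OR1, none in OR2 and 39 in neither, and CA9 had the highest ratio. The 4 made up 9.3% of the list, against 5.39% of all measured genes past 2-fold in either direction. CA9, carbonic anhydrase IX of the cell surface, read 1224 in OR1, 115 in OR2 and 32.9 in H1975, 10.66-fold higher in OR1 (log2 ratio 3.41 ± 0.21, technical SD). ADM, the vasodilator adrenomedullin, read 7569 in OR1, 2966 in OR2 and 1629 in H1975. VEGFA and ANGPTL4 were both 2.15-fold higher in OR1, and for both H1975 was above OR1. Another VEGFA probe had a log2 ratio of only 0.43. Of the 43 members, 35 had a log2 ratio above the median of all genes. The median lay 0.21 above that of all genes, and 0.14 above it after quantile normalization. GAPDH, of glycolysis, had a log2 ratio of 0.54, LDHA of 0.38 and SLC2A1, the glucose transporter GLUT1, of 0.28. The core letters of the site bound by HIF, ACGTG on either strand, occur in 7518 of 35116 promoter windows (21.4%) and in 27 of 69 windows (39.1%) of the 39 measured list members that matched. CA9 and ANGPTL4 hold them among the 3 members past 2-fold that matched. The stretch next to the CA9 start site is shown because CA9 leads the list, with the core in capitals.
CA9, chr9:35673885-35673927, plus strand: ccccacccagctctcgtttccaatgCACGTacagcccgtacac

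**Figure D4:**
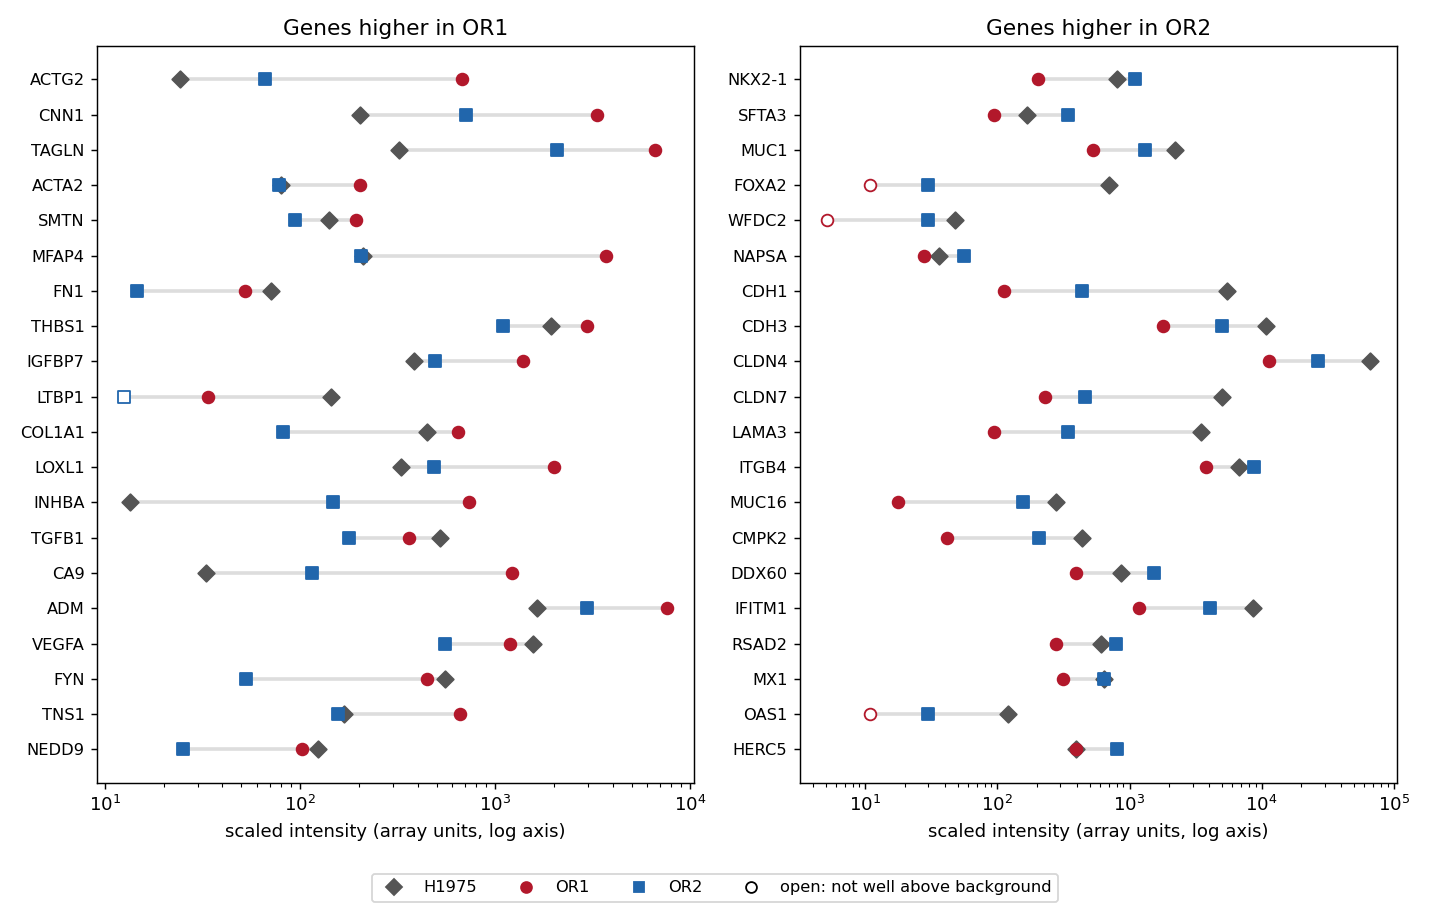
Scaled intensity (horizontal, log axis, array units) of 20 genes at least 2-fold higher in OR1 (left panel) and 20 at least 2-fold higher in OR2 (right panel), with H1975 as diamonds, OR1 as circles and OR2 as squares, 1 array each. Open symbols were not well above background. MFAP4 reads 3686 in OR1 beside 204 in OR2 and 209 in H1975, and NKX2-1 reads 202 in OR1 beside 1097 in OR2 and 804 in H1975.

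Several lung lineage genes were higher in OR2. Of 20 measured members, 6 were at least 2-fold higher in OR2 and none in OR1, while the list's median lay only 0.06 below that of all genes. NKX2-1 read 202 in OR1, 1097 in OR2 and 804 in H1975, 5.42-fold higher in OR2 (log2 ratio -2.44 ± 0.20, technical SD), and its probe lies on chromosome 14 from 36985718 to 36985777. SFTA3, a surfactant-associated gene beside NKX2-1, read 93.9 in OR1, 343 in OR2 and 168 in H1975. In both genes OR2 was at or above H1975 and OR1 below it. MUC1, a membrane mucin of lung epithelium, read 528 in OR1, 1302 in OR2 and 2193 in H1975. NAPSA, the aspartic protease of alveolar type II cells, read 27.7, 56.2 and 35.9 in OR1, OR2 and H1975. FOXA2, a forkhead factor of endoderm, read 30.1 in OR2 and 696 in H1975 and was not well above background in OR1, and WFDC2 read 29.8 in OR2 and 48.0 in H1975 and was likewise not in OR1. FOXA2 thus stood far below H1975 in both lines. FOXA2, WFDC2 and NAPSA were dim and fell under 2-fold with the normexp background correction.

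Most cell junction genes past 2-fold were below H1975 in both resistant lines, and lower in OR1. CDH1, E-cadherin of adherens junctions, read 112 in OR1, 436 in OR2 and 5451 in H1975, 3.90-fold higher in OR2 (log2 ratio -1.96 ± 0.21, technical SD), on chromosome 16 from 68869214 to 68869273. CDH3, P-cadherin, read 1788 in OR1, 4974 in OR2 and 10742 in H1975, and ARVCF, a catenin, 111 in OR1, 241 in OR2 and 51.7 in H1975. These were the 3 members past 2-fold of 15 measured cadherins and catenins, and 12 of the 15 lay below the median ratio of all genes. Among 23 measured tight junction genes only CLDN4 (11299 in OR1, 26600 in OR2 and 65745 in H1975) and CLDN7 (229, 461 and 4994) passed 2-fold. Of the 23 members, 18 lay below the median of all genes, and the list's median lay 0.62 below it, but only 0.22 below with the normexp correction and 0.26 below with the median over a gene's probes. OCLN, occludin, was at the opposite end with a log2 ratio of 0.76. Of 19 epithelial identity genes, LLGL2, a polarity protein, and SPINT2, an inhibitor of serine proteases, were 2.10-fold and 2.03-fold higher in OR2, and EPCAM had a log2 ratio of -0.97. LAMA3, a laminin chain of the basement membrane, read 93.6 in OR1, 342 in OR2 and 3478 in H1975 and was the only one of 10 measured laminin subunits past 2-fold, with another LAMA3 probe at a log2 ratio of -0.11 beside -1.87. ITGB4, the integrin subunit of hemidesmosomes, read 3764 in OR1, 8727 in OR2 and 6783 in H1975, and was 1 of 2 integrin subunits past 2-fold of 17 measured, the other being ITGA11, higher in OR1. The keratins KRT7, KRT8, KRT18 and KRT19 were close to equal in OR1 and OR2, with log2 ratios between -0.09 and 0.22. KRT7 read 20781 in OR1, 21571 in OR2 and 126990 in H1975. Of 26 measured keratins, KRT84 and KRT34 were at least 2-fold higher in OR1 and KRT13 in OR2. None of the 8 measured desmosome genes passed 2-fold, a list too short for this to differ much from the 5.39% over all genes.

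The interferon-stimulated genes past 2-fold were all higher in OR2. Of 57 measured members, 8 were at least 2-fold higher in OR2, none in OR1 and 49 in neither, 48 lay below the median ratio of all genes, and the list's median lay 0.30 below it. CMPK2, a mitochondrial nucleotide kinase, read 41.8 in OR1, 205 in OR2 and 436 in H1975, 4.90-fold higher in OR2. DDX60, a helicase that promotes RNA sensing, read 396 in OR1, 1535 in OR2 and 855 in H1975. IFITM1, a membrane protein that restricts virus entry, read 1187 in OR1, 4084 in OR2 and 8637 in H1975, with log2 ratios of -1.78 and -1.68 from its 2 probes. RSAD2 (viperin) read 280, 796 and 609 in OR1, OR2 and H1975, MX1 read 311, 645 and 643, and OAS1 was 29.6 in OR2 and not well above background in OR1. For MX1, RSAD2 and DDX60, OR2 was at or above H1975, while for CMPK2, IFITM1 and OAS1 it was below. MX2 was 2.68-fold higher in OR2 by its brightest probe, but a further probe gave a log2 ratio of 0.55, and HERC5 was 2.02-fold higher. STAT2 and IRF7, transcription factors of the response, had log2 ratios of -0.13 and -0.02. IRF5 and STAT4, of the same families, were higher in OR2, at log2 ratios of -2.15 and -1.79. They are not in the list and were chosen after their values were seen.

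Interferon-stimulated genes are switched on through the interferon-stimulated response element (ISRE), whose repeated core was searched as GAAANNGAAA on both strands. It was found in 1255 of 35116 promoter windows (3.57%) and in 34 of 59 windows (57.6%) of the 44 measured members that matched. Of the 7 members past 2-fold that matched, DDX60, HERC5, IFITM1, MX1 and RSAD2 hold it and CMPK2 and OAS1 do not in these windows. The stretches upstream of the start sites of DDX60, RSAD2 and IFITM1 are shown because these genes are past 2-fold, with each match in capitals.
DDX60, chr4:168318771-168318865, minus strand: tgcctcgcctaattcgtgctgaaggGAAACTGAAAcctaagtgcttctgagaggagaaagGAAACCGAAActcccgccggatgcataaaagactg
RSAD2, chr2:6877607-6877666, plus strand: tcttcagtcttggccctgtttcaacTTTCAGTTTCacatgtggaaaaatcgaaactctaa
IFITM1, chr11:313975-314034, plus strand: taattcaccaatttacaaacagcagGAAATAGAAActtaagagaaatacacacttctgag
The DDX60 stretch holds 2 matches and the others 1 each. The share of windows with the motif is a property of the list as a whole, since members that did not pass 2-fold hold it as well.

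Sensors and effectors of innate immunity separated the lines in both directions. Of 34 measured members, 3 were at least 2-fold higher in OR1 and 4 in OR2. TLR4, the receptor of lipopolysaccharide, read 145 in OR1 and 26.1 in OR2, with H1975 not above background, and its 2 probes gave log2 ratios of 2.47 and 1.79. CASP1, the protease of inflammasomes, read 78.2 in OR1 and 23.6 in OR2. AIM2, a sensor of DNA in the cytosol, ran the other way, at 45.4 in OR1, 242 in OR2 and 2494 in H1975, 5.32-fold higher in OR2. LY96, which is not in the list and encodes MD-2, the partner of TLR4 on the cell surface, was also higher in OR2, at 23.3 in OR1, 133 in OR2 and 734 in H1975. TLR4 and its partner LY96 thus had opposite ratios. NLRP1 was 3.54-fold higher in OR1 by its brightest probe, with a further probe at a log2 ratio of 0.36. The complement genes CFI, C7 and C5 were 3.95-fold, 2.71-fold and 2.18-fold higher in OR2, and a further CFI probe had a log2 ratio of -0.17.

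Among enzymes of lipid mediators and detoxification and among transporters, more of the genes past 2-fold were higher in OR2, although most members were less than 2-fold apart. Of 20 measured eicosanoid genes, 4 were at least 2-fold higher in OR2 and none in OR1. ALOX5, the lipoxygenase of leukotriene synthesis, read 42.1 in OR1, 140 in OR2 and 17.7 in H1975, PTGS1 (a cyclooxygenase) read 31.3, 89.1 and 56.0, and the prostaglandin transporter SLCO2A1 read 53.7, 138 and 2026. Of 36 glutathione transferases, cytochromes P450 and glucuronosyltransferases, 6 were at least 2-fold higher in OR2, all of them cytochromes P450, and 2 in OR1, while 20 of the 36 lay above the median ratio of all genes, toward OR1. The 2 were GSTA2, at least 6.33-fold, and CYP1A2, 2.01-fold. GSTA5, which is not in the list, was at least 15.3-fold higher in OR1, and these alpha class transferases are alike in sequence, so their probes may share transcripts. CYP4F12 was at least 3.29-fold higher in OR2. ABCG2, a drug efflux pump, was 42.04 in OR2, 24.9 in H1975 and not well above background in OR1, at least 3.35-fold higher in OR2. ABCG2 was the only one of 28 measured ABC transporters past 2-fold. Its log2 ratio ranged from -2.41 to -0.41 across the alternative ways of processing the data, so it was under 2-fold in some. SLC16A4, a monocarboxylate transporter, was 173 in OR2, 563 in H1975 and not well above background in OR1, at least 13.8-fold higher in OR2. It was 1 of 4 amino acid and glucose transporters of 34 measured that were at least 2-fold higher in OR2, with none in OR1, and 17 of the 34 lay above the median of all genes and 17 below it.

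Among genes with an mRNA accession, the largest ratios included members of other functions. The largest toward OR2 was that of GABRE, the epsilon subunit of the GABA-A receptor, at 15.8 in OR1, 748 in OR2 and 3056 in H1975, 47.2-fold higher in OR2 (log2 ratio -5.56 ± 0.35, technical SD), on chromosome X from 151121620 to 151121679. PON3, a lactonase of the paraoxonase family, read 433 in OR2 and 1926 in H1975 and was not well above background in OR1, at least 34.5-fold higher in OR2. In both genes OR2 was below H1975 and OR1 at or near background. MUC16, the mucin known as CA125, read 17.7 in OR1, 156 in OR2 and 276 in H1975. HS6ST2, a sulfotransferase of heparan sulfate, read 107.4 in OR1, 836 in OR2 and 377 in H1975, with a second probe at a log2 ratio of -2.22 beside -2.96. PLEKHS1 was 8.04-fold, CD177 8.01-fold, MDFIC 7.003-fold, GGT5 6.69-fold, EFHD1 6.52-fold and CHRM1, a muscarinic acetylcholine receptor, 5.85-fold higher in OR2. CD177 and CHRM1 were not well above background in H1975. Above background in OR2 and not in OR1 were further MAN1A1, at least 10.8-fold, DDX43, at least 8.59-fold, ANKRD29, at least 7.69-fold, AOAH, at least 7.01-fold, IL2RB, at least 4.98-fold, and OOEP, at least 4.97-fold.

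Among genes with an mRNA accession, the largest bounds toward OR1 were those of NPPB, the precursor of B-type natriuretic peptide, and A2M, the protease inhibitor alpha-2-macroglobulin. NPPB read 393 in OR1 and was not well above background in OR2 or H1975, at least 33.2-fold higher in OR1, and A2M read 353 in OR1 and was also not above background in the other lines, at least 29.8-fold higher. Both were above background in OR1 alone. A second NPPB probe gave a bound of 3.46 on the log2 scale. SLC27A2, a fatty acid transport protein, was at least 10.6-fold, FLG (filaggrin) at least 10.6-fold and ST6GALNAC5, a sialyltransferase, at least 8.58-fold higher in OR1. SPANXB1, a cancer-testis antigen of chromosome X, read 121 in OR1 and 55.2 in H1975 and was not well above background in OR2, at least 10.2-fold higher in OR1, and the closely related SPANXC was at least 8.32-fold higher, though paralogs this alike may share signal. Among genes measured in both lines, NMU (neuromedin U) read 308 in OR1, 31.7 in OR2 and 49.8 in H1975, a ratio of 9.71. OR2T8 was 14.3-fold, SOBP 9.58-fold, PSG5 7.37-fold and TMPRSS15 7.23-fold higher in OR1, and another SOBP probe had a log2 ratio of 0.75 beside 3.26. The related genes PSG1, PSG2, PSG6, PSG8 and PSG9 were also at least 2-fold higher in OR1, and probes of this family may share signal. Among transcripts with a non-coding accession, the largest ratios toward OR1 were those of LOC100505817 (10.67-fold), LOC101928353 (8.51-fold) and FAM230B (6.59-fold). The 2 other FAM230B probes were at -0.35 and 0.49 on the log2 scale. Toward OR2 the largest were those of LOC102724943 (at least 3.98-fold), LOC101926967 (3.34-fold) and LINC00525 (3.26-fold). Small nucleolar and Cajal body RNAs had no list of their own. Those past 2-fold and well above background in H1975 were all higher in OR1. Among them were SNORA44, SNORA2A and SCARNA11, at log2 ratios of 2.55, 2.49 and 2.15, and the cause was not tested.

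Functions that did not separate the lines at 2-fold included growth and basic metabolism. None of 58 measured cell cycle and proliferation genes passed 2-fold, although 47 of them lay above the median ratio of all genes and their median lay 0.25 above it, from -0.82 for TOP2A to 0.73 for E2F2. Replication-dependent histones were shifted further, with 56 of 62 above the median, a median 0.52 above that of all genes, and 2 members, HIST4H4 and HIST1H3B, past 2-fold. Both histones were under 2-fold with the arrays scaled on their medians. None of 67 respiratory chain subunits passed 2-fold, and their median, 0.17 above that of all genes, was 0.05 above it after quantile normalization. No member passed 2-fold among 29 MHC class I genes, 34 cyclin-dependent kinase inhibitors, cyclins and p53 targets, and 23 sterol genes. The same held for 19 serpins and plasminogen activators, 14 S100 proteins, 10 metallothioneins and 9 Hedgehog genes. The share over all genes was 5.39%, and these lists lay below it, at 3.23% for the histones and 0 for the others. The shorter lists would hold few such members or none even at 5.39%. With 1 array per line, none of these ratios, below or past 2-fold, could be set against variation between cultures.

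Ratios were not even along the genome. In bins of 10 Mb of hg19 with at least 10 genes well above background in both lines, 18 of 299 bins had a median log2 ratio more than 0.3 below that of all placed genes, toward OR2, and 1 more than 0.3 above it. Of the 18 bins, 8 lie on chromosome 7, 5 on chromosome 13, 4 on chromosome 9 and 1 on chromosome 5. On chromosome 7 the medians of 15 of 16 bins lay below that of all genes. The lowest were the bin from 80 to 90 Mb, at -0.63 relative to all genes over 16 genes, and that from 110 to 120 Mb, at -0.57 over 20 genes, of which 18 (90.0%) were on the side of OR2. On chromosome 13 the bin from 90 to 100 Mb was at -0.52, and on chromosome 9 that from 80 to 90 Mb at -0.51. Of the 1087 measured genes on chromosome 7, 61 (5.61%) were at least 2-fold higher in OR2, against 2.46% over all chromosomes, and they made up 11.5% of the genes higher in OR2 while chromosome 7 holds 5.06% of the measured genes. Another 27 genes of chromosome 7 (2.48%) were at least 2-fold higher in OR1, against 2.93% over all chromosomes. Of the genes named above, PON3, MDFIC, AOAH and LINC00525, higher in OR2, and INHBA, IGFBP3 and COL1A2, higher in OR1, are among those on chromosome 7. The corresponding shares were 4.76% on chromosome 13 and 4.57% on chromosome 9. Neighboring genes are not independent, and the copy number of these regions was not measured.

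**Figure D5:**
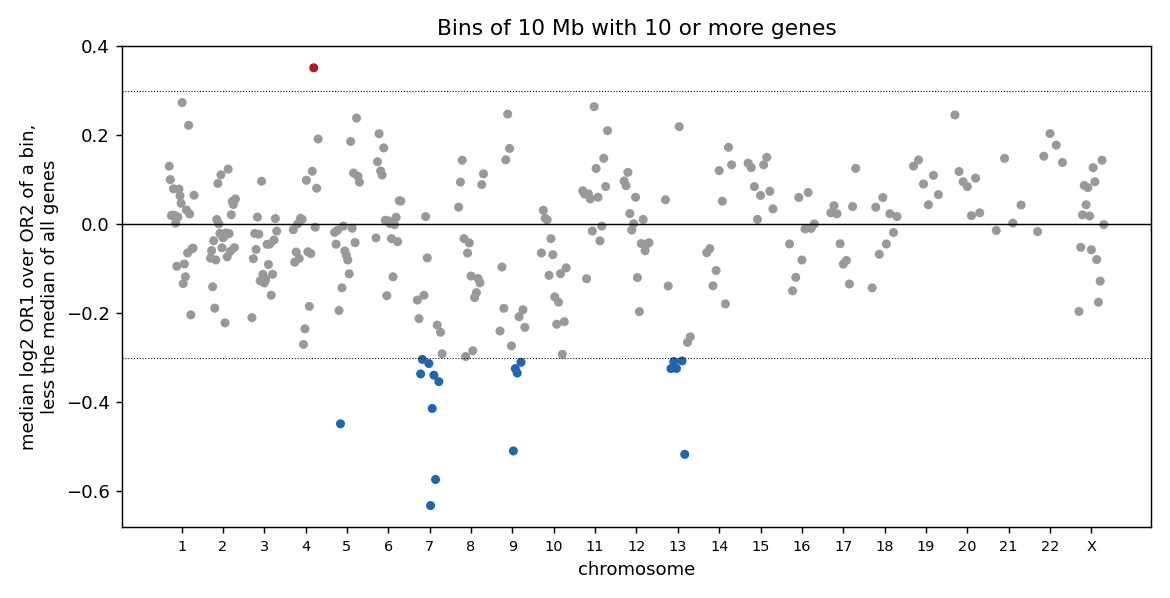
Median log2 ratio of OR1 to OR2 in bins of 10 Mb, less the median of all genes (vertical axis), with bins in order along each chromosome (horizontal axis), 1 point per bin. Dotted lines mark 0.3 above and below. The 18 blue points below the lower line fall mostly on chromosomes 7, 13 and 9, and the single red point above the upper line is on chromosome 4.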

How the data were processed

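Expression in the 3 lines was measured with 1 Agilent one-color SurePrint G3 60-mer array per line, with probe positions on hg19. The deposited scanner files hold, per the file headers, intensity that the authors obtained with Feature Extraction 10.7.1.1 (the submitters' processing notes name version 9.5.1.1), already background-subtracted. The authors' normalized intensities in the deposited value table served as an alternative.

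Control spots and spots with outlier flags were left out, repeated spots were averaged, log2 was taken, and each array's 75th percentile was subtracted. Per gene name, the probe brightest over OR1 and OR2 was kept. No test is possible with 1 array per line, and this number limits the precision. Genes at least 2-fold apart were counted, with bounds where 1 line was not well above background. Gene names are those of the array's design. Named were the 12 largest ratios and 8 largest bounds each way among genes with an mRNA accession, 3 non-coding transcripts each way, list members past 2-fold, and genes the study followed. Members of lists that did not pass 2-fold and are named here were chosen after their values were seen. So were genes outside the lists that these rules do not cover, such as IRF5 and STAT4. The lists and the comparison were chosen with earlier results of these data known. Promoter sequences are RefSeq's, of GRCh38.p14. Alternatives concerned scaling (quantile, median, none, spike-in, a restricted percentile), normexp background correction with offset 50, the background filter, outlier spots, the choice of probe and the fold threshold. Python 3.11.15, numpy 2.4.6, pandas 2.3.3 and matplotlib 3.10.9 were used, with R 4.3.3 and limma 3.58.1 for normexp, and the counting was tested on simulated data.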

Additional observations from a re-analysis of the deposited data

How the results depend on the processing

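The numbers of genes at least 2-fold higher in OR1 and in OR2, 628 and 529, became 396 and 1072 without scaling, 189 and 4036 with spike-in scaling, 148 and 108 with the normexp background correction, and 2984 and 2070 with neither filter nor bound. With a threshold of 4-fold they were 114 and 43, and with 1.5-fold 2408 and 1869. They were 372 and 378 when only genes well above background in both lines were kept, and 269 and 376 with RefSeq mRNA probes only. Spike-in scaling shifted the median ratio of all genes by -0.67 and the absence of scaling by -0.23, and other scalings by less than 0.1. Of 210 named genes past 2-fold, 77 were so in every alternative that gave a value, and 177 in all apart from spike-in scaling, no scaling and normexp. The number under 2-fold was 112 with normexp, 52 with spike-in scaling and 25 without scaling, and no named gene past 2-fold changed direction. The median relative to all genes changed sign for EMT transcription factors (-0.037 with genes measured in both lines only), for leukocyte markers (0.0247 with no filter) and for endothelial markers (0.012 with normexp and 0.0084 with no filter). For these changes the cause was not tested, other than that stricter thresholds and filters count fewer genes. Signal over background limits dim genes, since 407 of the 1157 ratios are bounds. No paired analysis was possible because each line has 1 array.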

Other observations

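Further functions differed in single members. The share past 2-fold was 11.3% for ion channels and 13.9% for semaphorins, plexins, netrins and slits, against 5.39% over all genes. Of 53 measured ion channel genes, 4 were at least 2-fold higher in OR1 and 2 in OR2, led by KCNS1, a modifier subunit of potassium channels, at 68.1 in OR1 and not well above background in OR2, at least 5.74-fold higher in OR1. TRPM2, a cation channel, read 900 in OR1, 362 in OR2 and 350 in H1975. Of 36 measured semaphorin, plexin, netrin and slit genes, 4 were higher in OR2 and 1 in OR1. NTNG2, netrin G2, read 86.7 in OR1, 435 in OR2 and 84.2 in H1975, so that OR2 stood apart from both other lines.

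Among 29 measured genes of ERK output and feedback, EPHA4, an Eph receptor, was at least 3.45-fold higher in OR1, SPRY1, a Sprouty inhibitor, read 228 in OR1 and 101 in OR2, and DUSP2, a phosphatase of MAP kinases, read 285 and 141. No member was 2-fold higher in OR2. Of 18 measured chemokines and receptors, 2 were higher in OR1, CCL2, a chemokine for monocytes, at 918, 346 and 30.4 in OR1, OR2 and H1975, and ACKR3, a scavenging receptor, at 173, 61.8 and 197. CRYAB, a small heat shock protein, was 5.27-fold higher in OR1. MEST, an imprinted gene of chromosome 7, read 33.7 in OR1, 142 in OR2 and 373 in H1975, and MAGEB2, a cancer-testis antigen, read 23.2, 108 and 56.5. Of 43 measured protocadherins, which share sequence within their clusters, 4 were 2-fold higher in OR1 and none in OR2. The share past 2-fold was 9.3% for protocadherins, 10.3% for ERK output and feedback and 11.1% for chemokines and receptors. Over all genes it was 5.39%, so each excess rests on few genes.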
